A study of Drosophila melanogaster with 21 samples.

Results

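Loss of CG7818 was set against loss of Ime4, the partner subunit of the same enzyme, to ask which genes separate the depletions. The libraries titled CG7818 or Ime4 alone were taken, 3 of each and 6 of the 21 in the series. All are poly(A) RNA of S2R+ cells, a macrophage-like line that was derived from Drosophila melanogaster embryos and was grown at room temperature. The CG7818 group was depleted for CG7818 (Mettl14) and the Ime4 group for Ime4 (Mettl3). Cells depleted for both genes, called the double depletion here, and control cells gave 3 further libraries each, which place the differences. They are on neither side of the direct contrast, though all 21 libraries share its estimate of the spread. The labels name neither the reagent nor the duration of depletion, nor do they say that replicates were separate cultures. A p-value here thus compares groups with the spread between libraries, part of which may be technical.

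Mettl3 and Mettl14 form a heterodimer that writes N6-methyladenosine (m6A), the most common internal mark of mRNA. Mettl3 carries the catalytic site, and Mettl14 holds the dimer together and helps to bind the RNA. Fl(2)d, Virilizer, Flacc, Hakai and Nito assist the dimer, and the YTH proteins Ythdc1 (nuclear) and Ythdf (cytoplasmic) bind the mark.

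Counts assigned to genes came to 22126193, 22049393 and 21971286 in the CG7818 libraries and to 26246896, 22510505 and 21365127 in the Ime4 libraries. Levels are counts-per-million (CPM) of the scaled library, and 8360 genes passed the filter on low counts. The groups differed in how reads mapped. Reads aligned to several places made up 12.9% to 14.5% of all counted reads in CG7818 and 15.9% to 17.6% in Ime4 libraries, with no overlap. They made up 15.9% to 16.9% in the double depletion, within the Ime4 range, and 12.1% to 13.6% in control libraries. Mitochondrial genes took 8.83%, 12.8% and 14.6% of gene counts in CG7818 and 15.4%, 13.6% and 15.5% in Ime4 libraries, so CG7818 replicate 1 stood below the others. Of the plasmatocyte markers Pxn, srp, crq and drpr stood above 80 CPM in all 6 libraries, while Hml was at most 2.71 CPM, eater at most 0.577 CPM and NimC1 at most 0.191 CPM. The 11 plasmatocyte markers summed to 686 to 727 CPM in CG7818 and 657 to 681 CPM in Ime4 libraries, and the 5 crystal cell and lamellocyte markers to 508 to 537 CPM in CG7818 and 483 to 494 CPM in Ime4 libraries. Neither pair of ranges overlapped, and 0 of these markers that could be tested were called at an adjusted p under 0.05, which 0.502% of all genes tested passed. Of the muscle markers Tm2 was at 0, Mhc, up and bt were at most 1.32 CPM, and Mef2 was at 26.1 to 32.1 CPM. Of the crystal cell and lamellocyte markers atilla was at 0, lz at most 0.181 CPM and PPO2 at 2.57 to 3.73 CPM. In that list PPO3 was at 65.5 to 77.4 CPM and msn at 403 to 464 CPM, so msn made up most of its sum. In these bulk samples, fewer cells of a type and less RNA per cell cannot be told apart, and the part of these differences in the results below was not tested.

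Each target was low only in the libraries depleted for it among the groups described here. Mettl14 (FBgn0032016, build BDGP6.54, chromosome 2L, 8308427 to 8309961, plus strand) had 4.79, 6.87 and 5.73 CPM in CG7818 libraries, against 69.3, 66.6 and 67.4 CPM in Ime4 libraries. It had 7.01, 7.24 and 4.28 CPM in the double depletion and 66.2, 63.8 and 63.6 CPM in control cells. The labels and the transcript thus go together in all 12 libraries, and the CG7818 and Ime4 levels lie far apart. The log2 fold change of CG7818 over Ime4 was −3.55 (SE 0.109, adjusted p = 9.38e-16 by the quasi-likelihood test of edgeR, adjusted over all genes tested after Benjamini and Hochberg, as is every adjusted p given here).

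Mettl3 (FBgn0039139, chromosome 3R, 24032157 to 24034257, plus strand) showed the mirror image. It had 59.3, 61.2 and 56.9 CPM in CG7818 libraries, against 6.58, 5.39 and 5.29 CPM in Ime4 libraries. It had 8.22, 4.40 and 3.37 CPM in the double depletion and 59.9, 62.0 and 62.8 CPM in control cells. The log2 fold change was 3.35 (SE 0.147, adjusted p = 7.63e-13). Neither transcript was called where its partner was depleted: against control cells Mettl3 had −0.06 on the log2 scale in CG7818 (SE 0.115, adjusted p = 0.874) and Mettl14 had 0.07 in Ime4 (SE 0.0844, adjusted p = 0.73). Protein was not measured. CG7810, whose exons overlap those of Mettl14, had 3.94 ± 0.21 CPM in CG7818 and 3.36 ± 0.58 CPM in Ime4 (SD, n = 3 each) and was not called (adjusted p = 0.425).

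**Figure D1:**
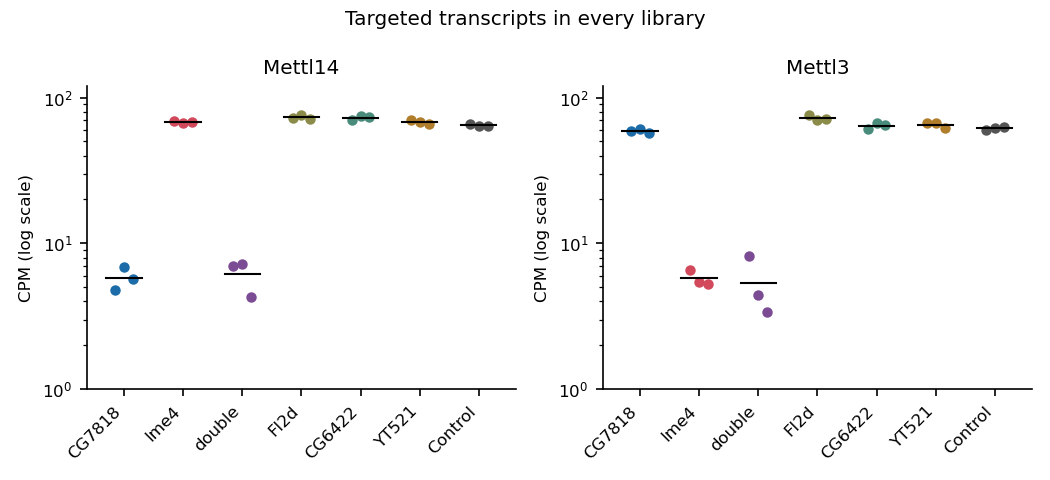
CPM of Mettl14 and Mettl3 on a log axis in each of the 21 libraries (points) with the group mean (line). Mettl14 lies between 4.28 and 7.24 CPM only in the CG7818 and double depletions, and Mettl3 between 3.37 and 8.22 CPM only in the Ime4 and double depletions.

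For the rest of the writer complex and the readers the intervals say more than the calls. Beside the targets, 0 of the 7 other genes of that list were called, which is near the 0.502% of all genes tested that were. The transcript of fl(2)d had 172, 181 and 179 CPM in CG7818, 167, 186 and 188 CPM in Ime4 and 126, 126 and 124 CPM in control cells, so both depletions stood above control cells and overlapped each other. Its difference was −0.02 on the log2 scale with a 95% interval of −0.15 to 0.11. The intervals were −0.01 to 0.28 for vir, −0.30 to 0.15 for Flacc, −0.23 to 0.23 for Hakai, −0.24 to 0.09 for Ythdc1 and −0.28 to 0.18 for Ythdf. The gene nito, which encodes an RNA-binding subunit of the complex, had 101, 109 and 105 CPM in CG7818 and 113, 119 and 111 CPM in Ime4. These values did not overlap, but the difference of −0.12 missed the threshold (adjusted p = 0.212).

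Few genes told the depletions apart. At an adjusted p under 0.05, 42 of 8360 genes (0.502%) were called, 22 higher (0.263%) and 20 lower (0.239%) in CG7818 than in Ime4, the targets included. Only 4 of the 42 differed at least 2-fold (0.0478% of the genes tested): Mettl3, Mettl14, CG14694 and CG31029. All 42 had no overlap between the 3 libraries of each group, which was so for 24.2% of all genes tested. This comes largely with the call and adds little to it: 309 of the 311 genes called in Ime4 against control cells had none either. The median size of the 42 differences was 0.42 on the log2 scale and the smallest 0.19. The same fit called 194 genes (2.32%) in CG7818 and 311 genes (3.72%) in Ime4 against control cells. Without 1 library at a time the 42 became 25, 22 and 16 (CG7818 replicates 1, 2 and 3) and 17, 24 and 32 (Ime4 replicates 1, 2 and 3). A fit of these 6 libraries alone, with a smaller estimated spread, called 227 (154 higher, 73 lower), and all 42 were among them.

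For most genes tested, called genes included, the data bound the difference rather than leave it unknown. The 95% interval of the log2 fold change lay inside ±0.5 for 6629 genes (79.3%) and inside ±1 for 7840 (93.8%). This depended on the level. Under 1 CPM, 0.233% of 860 genes had such a narrow interval inside ±0.5, and from 1 to 10 CPM 51.2% of 1459 had one. From 10 to 100 CPM the share was 97.2% of 4212 genes, and above 100 CPM it was 97.5% of 1829. A difference of that size in a scarce transcript could thus have been missed at this depth. The bound of ±0.5 is wider than the median called difference of 0.42, and the called gene Hrb87F has an interval of 0.15 to 0.31. An interval inside ±0.5 therefore does not show equal levels.

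**Figure D2:**
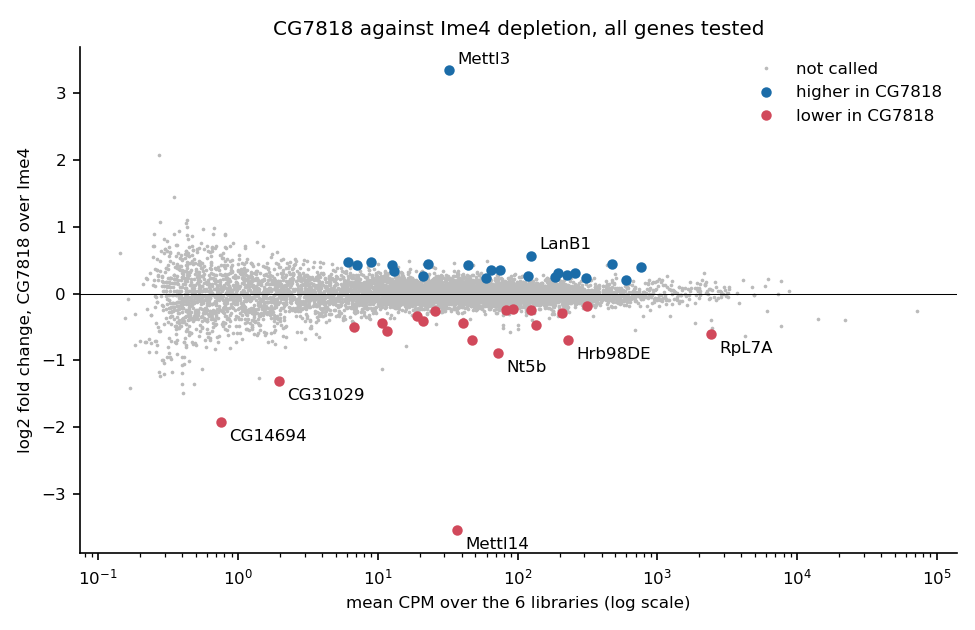
Log2 fold change of CG7818 over Ime4 against the mean CPM of the 6 libraries (log axis) for the 8360 genes tested, with called genes in colour. Most called genes lie within 1 of 0 on the log2 scale, and the targets stand apart at 3.35 and −3.55.

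Besides the targets, 12 genes were called in every alternative that gave them a value, 8 of them lower and 4 higher in CG7818. Most of the 8 lower genes stood near the control level in Ime4. Nt5b (FBgn0052549, chromosome X, 18390498 to 18410144, minus strand), which encodes a 5′-nucleotidase, had 50.9, 50.1 and 50.3 CPM in CG7818, against 94.1, 91.0 and 95.9 CPM in Ime4. In the double depletion it had 59.8, 55.3 and 59.0 CPM, and in control cells 90.7, 103 and 98.9 CPM. All 6 libraries depleted for CG7818, alone or with Ime4, were thus below all Ime4 and control libraries. The difference was −0.89 (SE 0.0519, adjusted p = 1.6e-10). Against control cells Nt5b fell by 0.95 in CG7818 (adjusted p = 6.89e-11) and had −0.06 in Ime4 (adjusted p = 0.616).

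Hrb98DE (FBgn0001215, chromosome 3R, 28599834 to 28605777, plus strand) encodes an RNA-binding protein of the hnRNP A/B type. It had 175, 170 and 178 CPM in CG7818, against 305, 273 and 271 CPM in Ime4, with 199, 187 and 195 CPM in the double depletion and 298, 287 and 274 CPM in control cells. The order was that of Nt5b, with no overlap between libraries that had lost CG7818 and those that had not. The difference was −0.70 (SE 0.0539, adjusted p = 2.33e-08). Its relative Hrb87F went the other way, with 334, 326 and 340 CPM in CG7818 against 290, 282 and 281 CPM in Ime4 (0.23, SE 0.0406, adjusted p = 0.00571). Leaving out CG7818 replicate 3 ended that call (adjusted p = 0.0539). Of the 21 hnRNP genes tested these were the only ones called, 1 higher and 1 lower, where 0.263% of all genes tested were called higher and 0.239% lower, and the median of the list was −0.05, against −0.01 over all genes tested.

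RpL7A (FBgn0014026, chromosome X, 6530897 to 6533348, minus strand) encodes a protein of the large ribosomal subunit. It had 1904, 2045 and 1795 CPM in CG7818, against 2773, 2991 and 3017 CPM in Ime4. The double depletion had 2217, 2164 and 2148 CPM and control cells 2815, 3010 and 3158 CPM. Of these 12 libraries the 6 depleted of CG7818 were again the lowest, and the difference was −0.61 (SE 0.0845, adjusted p = 0.000366). RpL27, another protein of the large subunit, was higher in CG7818, with 831, 929 and 854 CPM against 594, 682 and 707 CPM in Ime4 (0.40, SE 0.0788, adjusted p = 0.0168). That call ended when CG7818 replicate 2 (adjusted p = 0.119), CG7818 replicate 3 (0.0573) or Ime4 replicate 1 (0.166) was left out. The other 79 of the 81 cytosolic ribosomal protein genes tested were not called, where 0.502% of all genes tested were called. Of the 81, 61 lay above 0 with a median of 0.07, against 48.2% of all genes and a median of −0.01.

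Another 3 genes were lower in CG7818 in every alternative. FBgn0039632 had 36.8, 37.7 and 34.5 CPM in CG7818, against 59.8, 61.2 and 55.1 CPM in Ime4, with 42.7, 40.3 and 40.3 CPM in the double depletion and 54.8, 56.3 and 57.7 CPM in control cells (−0.69, SE 0.0504, adjusted p = 9.96e-09). CG14907 (FBgn0038455) had 119, 108 and 112 CPM in CG7818, against 168, 153 and 149 CPM in Ime4 (−0.47, SE 0.0548, adjusted p = 2.55e-05). In both genes the lowest Ime4 library lay above the highest CG7818 library. Dip-B (FBgn0000454), a dipeptidase, had 185, 197 and 178 CPM in CG7818 and 227, 226 and 236 CPM in Ime4 (−0.30, SE 0.0480, adjusted p = 0.00244). Neither CG14907 nor Dip-B was called in the double depletion against control cells (log2 fold changes of −0.10 and −0.07). Both stood slightly nearer to Ime4 than to CG7818 there.

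The largest called differences after the targets were in scarce transcripts. CG14694 (FBgn0037845, chromosome 3R, 10858202 to 10859813, minus strand) had 0.382, 0.271 and 0.273 CPM in CG7818, against 0.962, 1.55 and 1.1 CPM in Ime4. It had 0.543, 0.654 and 0.475 CPM in the double depletion and 1.42, 1.08 and 1.38 CPM in control cells. These values rest on 9, 6 and 6 reads in CG7818 and 25, 35 and 23 reads in Ime4, and the difference was −1.93 (SE 0.276, adjusted p = 0.000527). CG31029 (FBgn0051029, chromosome 3R, 30129279 to 30132395, minus strand) was called higher in Ime4 than in control cells (0.99, adjusted p = 0.0032). It was not called in CG7818 against control cells (−0.32, adjusted p = 0.536), where a fall could have been missed at this level. It had 0.890, 0.994 and 1.5 CPM in CG7818 and 3.04, 2.61 and 2.71 CPM in Ime4, against 1.24, 1.67 and 1.24 CPM in control cells. The double depletion, at 1.38, 1.53 and 1.57 CPM, overlapped control cells. The difference was −1.31 (SE 0.194, adjusted p = 0.000758).

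**Figure D3:**
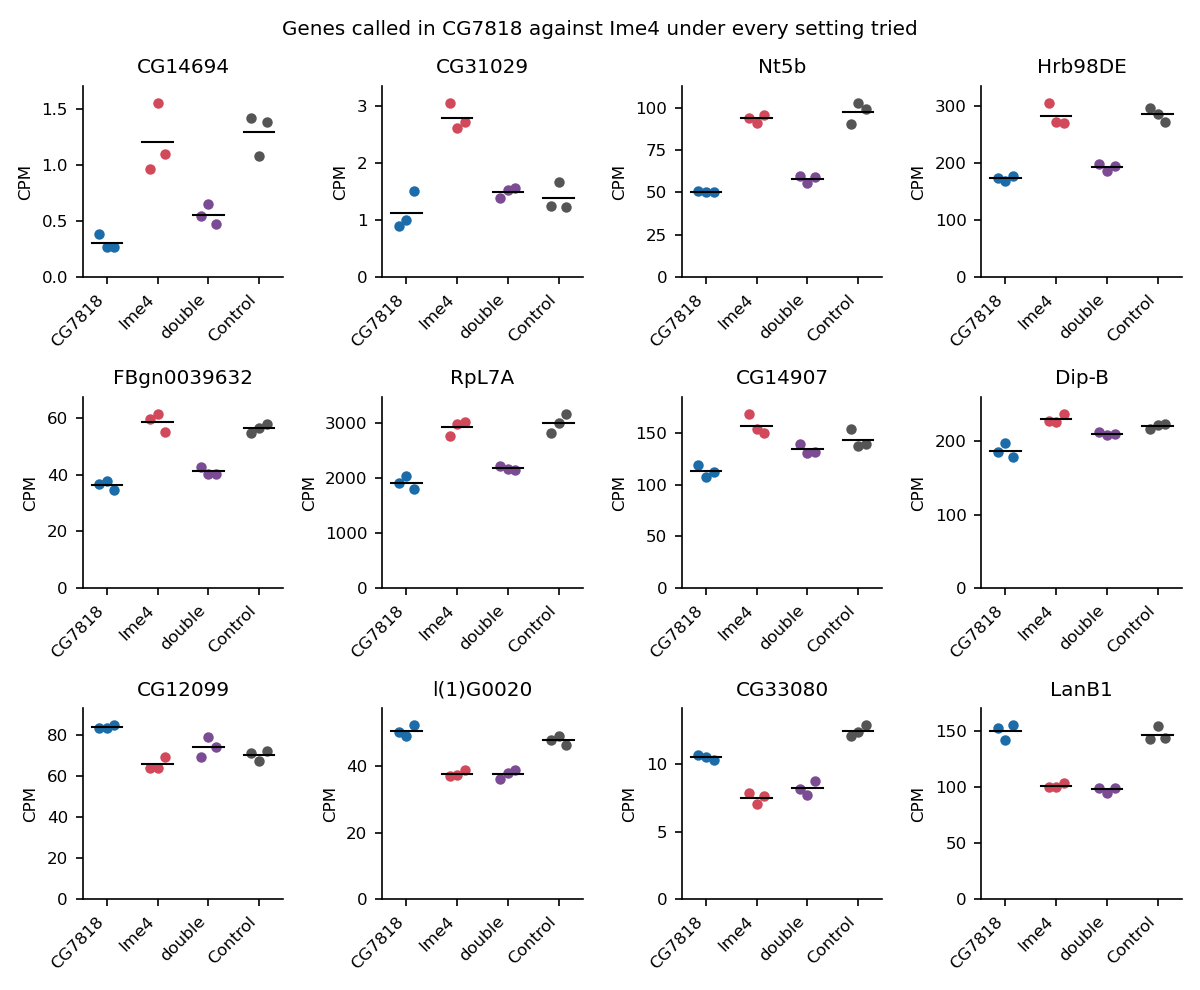
CPM per library (points) and group mean (line) for the 12 genes other than the targets that were called in each alternative giving them a value, which was 11 alternatives for CG14694 and 12 for the others. In Nt5b, Hrb98DE, FBgn0039632 and RpL7A the CG7818 and double depletions lie together below Ime4 and Control, and in LanB1 and l(1)G0020 the Ime4 and double depletions lie together below CG7818 and Control.

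Most genes higher in CG7818 lay farther from control cells in Ime4 than in CG7818. LanB1 (FBgn0261800, chromosome 2L, 7811438 to 7820771, plus strand) encodes the beta chain of laminin, a trimer of basement membranes. It had 153, 142 and 155 CPM in CG7818, against 99.9, 100 and 103 CPM in Ime4. The double depletion had 99.4, 94.6 and 99.0 CPM and control cells 142, 154 and 144 CPM. All 6 libraries depleted for Ime4 were thus below all others of these groups. The difference was 0.57 (SE 0.0539, adjusted p = 9.33e-07). Against control cells LanB1 fell by 0.54 in Ime4 (adjusted p = 3.56e-06) and had 0.03 in CG7818 (adjusted p = 0.857).

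The other laminin chains lay on the same side. LanB2, the gamma chain, had 212, 212 and 219 CPM in CG7818 and 172, 178 and 171 CPM in Ime4 (0.30, SE 0.0572, adjusted p = 0.011). Its call ended when CG7818 replicate 3 (adjusted p = 0.0706), Ime4 replicate 1 (0.0766) or Ime4 replicate 3 (0.0547) was left out. LanA, an alpha chain named after its values were seen, had 505, 476 and 517 CPM in CG7818 and 368, 365 and 383 CPM in Ime4, with no overlap, and missed the threshold (0.43, SE 0.100, adjusted p = 0.0563). The second alpha chain, wb, was scarce at 3.06 ± 0.39 CPM in CG7818 and 2.63 ± 0.071 CPM in Ime4 (SD, n = 3 each; 0.22, adjusted p = 0.597). Of the 29 genes of laminins, matrix and integrins that could be tested 2 were called, both higher, where 0.263% of all genes tested were called higher, and the median of the list was 0.03, against −0.01 over all genes. In the fit of these 6 libraries alone, where 2.81% of the genes tested were called, LanA was called as well. The collagen IV genes vkg and Col4a1 and the integrin subunits mew, if, mys and Itgbn were not called.

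**Figure D4:**
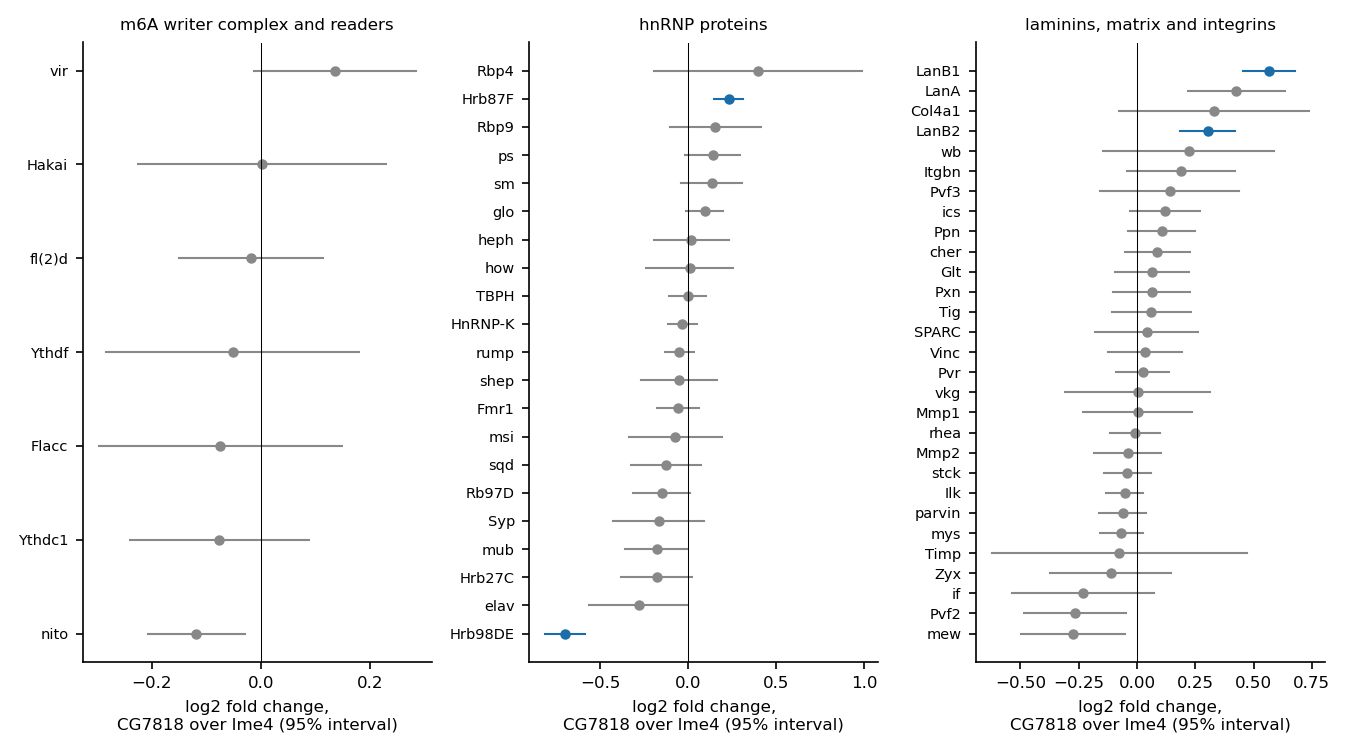
Log2 fold change of CG7818 over Ime4 with its 95% interval for the writer complex and readers without the targets, the hnRNP genes and the laminin, matrix and integrin genes, with called genes in blue. Hrb98DE at −0.70, Hrb87F at 0.23, LanB1 at 0.57 and LanB2 at 0.30 are the called genes, and the axes differ between panels.

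A further 3 genes were higher in CG7818 in every alternative. The gene l(1)G0020 (FBgn0027330), the fly relative of the RNA cytidine acetyltransferase NAT10, had 50.2, 49.0 and 52.2 CPM in CG7818, against 37.0, 37.2 and 38.7 CPM in Ime4, with 35.9, 37.7 and 38.7 CPM in the double depletion and 47.8, 49.1 and 46.1 CPM in control cells (0.42, SE 0.0587, adjusted p = 0.000366). CG33080 (FBgn0053080) had 10.6, 10.5 and 10.3 CPM in CG7818 and 7.89, 7.03 and 7.62 CPM in Ime4, against 12.1, 12.3 and 12.9 CPM in control cells. It was higher in CG7818 than in Ime4, and the difference was 0.48 (SE 0.0827, adjusted p = 0.00512). CG12099 (FBgn0035232) had 83.3, 83.4 and 84.7 CPM in CG7818 and 64.0, 64.1 and 69.1 CPM in Ime4 (0.35, SE 0.0588, adjusted p = 0.00382). Control cells, at 71.1, 67.4 and 72.4 CPM, lay below CG7818.

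Each of the other calls was lost without at least 1 of the 6 libraries. Among those higher in CG7818 were Sap-r, the saposin precursor of the lysosome, at 539, 551 and 540 CPM against 382, 401 and 421 CPM in Ime4 (0.44, SE 0.0853, adjusted p = 0.0144), and Nop60B, the pseudouridine synthase of snoRNA particles, at 285, 281 and 294 CPM against 232, 232 and 231 CPM (0.30, SE 0.0534, adjusted p = 0.00571). The atypical cadherin kug, the calcium pump SERCA, the proteasome subunit Prosbeta6, the co-chaperone Tpr2 and the initiation factor subunit eIF3b were also higher, with differences of 0.21 to 0.45. Among those lower were the gap junction protein Inx2 (−0.57), the glutathione S-transferase GstS1 (−0.50), the EGF receptor antagonist aos (−0.44), the adhesion protein caps (−0.33), the phospholipid scramblase scramb2 (−0.24) and the ceramide transfer protein cert (−0.23). The call of Nop60B was lost without CG7818 replicate 3 (adjusted p = 0.0515), as was that of scramb2 (adjusted p = 0.0515), and that of GstS1 without CG7818 replicate 3 (adjusted p = 0.0609) or Ime4 replicate 1 (adjusted p = 0.0766). Those of cert and eIF3b were each lost without 4 of the 6 libraries, those of Sap-r, Prosbeta6, Tpr2, Inx2, aos and caps without 5, and those of kug and SERCA whichever of the 6 was left out. Without 1 library the adjusted p reached at most 0.0893 for cert, 0.123 for eIF3b, 0.131 for Sap-r, 0.139 for kug and 0.166 for Inx2. It reached at most 0.201 for Prosbeta6 and for Tpr2, 0.21 for caps, 0.212 for aos and 0.288 for SERCA.

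Most of the called genes lay farther from control cells in the depletion where their level was lower. All comparisons with control cells share the same 3 control libraries, so the values are set side by side. The genes were also chosen by the direct contrast, which used the same CG7818 and Ime4 libraries. More calls than over all genes, and a larger distance from control cells in either depletion, thus follow in part from that choice. Of the 19 genes lower in CG7818, Mettl14 apart, 17 lay farther from control cells in CG7818 than in Ime4. Of these 19, 13 were called in CG7818 against control cells and 2, CG31029 and aos, in Ime4, where 2.32% and 3.72% of all genes were called, and 4 were called in neither. Of the 21 genes higher in CG7818, Mettl3 apart, 19 lay farther from control cells in Ime4. Of these 21, 11 were called in Ime4 and 3 in CG7818 against control cells, Xxylt in both, and 8 in neither. These counts leaned on single libraries. The 11 became 7 without Ime4 replicate 1 and 6 without Control replicate 2, where LanB2, PAPLA1, RpL27, Sap-r and Tpr2 lost their call, and the 3 became 1 without any 1 of the CG7818 libraries or without Control replicate 2, where CG12099 and Xxylt lost theirs. The 13 became 10 to 12 without 1 library. The genes farther in CG7818 among the higher ones were CG12099 and Hrb87F, and those farther in Ime4 among the lower ones were CG31029 and aos. Control cells lay between the CG7818 and Ime4 depletions for 13 of the 19 and 17 of the 21. A larger distance in one depletion thus does not place the other at the control level.

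The double depletion supplied libraries on neither side of the direct contrast, though they entered the same fit and its estimate of the spread. On a scale where 0 is the Ime4 level and 1 the CG7818 level, its median position was 0.68 over the 19 lower genes and 0.27 over the 21 higher genes. It was nearer to CG7818 for 12 of the 19 and nearer to Ime4 for 15 of the 21. The share of all genes tested that lay nearer to each is not given here, so these counts are not read as a trait of these genes. Against control cells 9 of the 19 were called lower in the double depletion and 1, aos, higher, and 9 of the 21 were called lower and 0 higher, where 5.13% of all genes were called lower and 6.29% higher. Of these 18 genes called lower in the double depletion, 14 kept that call whichever 1 library was left out, Nt5b, Hrb98DE, RpL7A, FBgn0039632, CG14694, LanB1, LanB2, Nop60B and l(1)G0020 among them. It ended without 3 of the 6 libraries for cert, without 2 for CG4751 and Sap-r and without 1 for nolo. In the 14 the single depletion with the lower level also kept its call, except for LanB2 in Ime4, whose call ended without Control replicate 2 (adjusted p = 0.0737), and Tpr2 in Ime4, whose call ended without 3 libraries (up to 0.0616). The call of aos against control cells ended whichever of the 6 libraries was left out in Ime4 (adjusted p up to 0.178), and for 5 of 6 in the double depletion (up to 0.198).

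**Figure D5:**
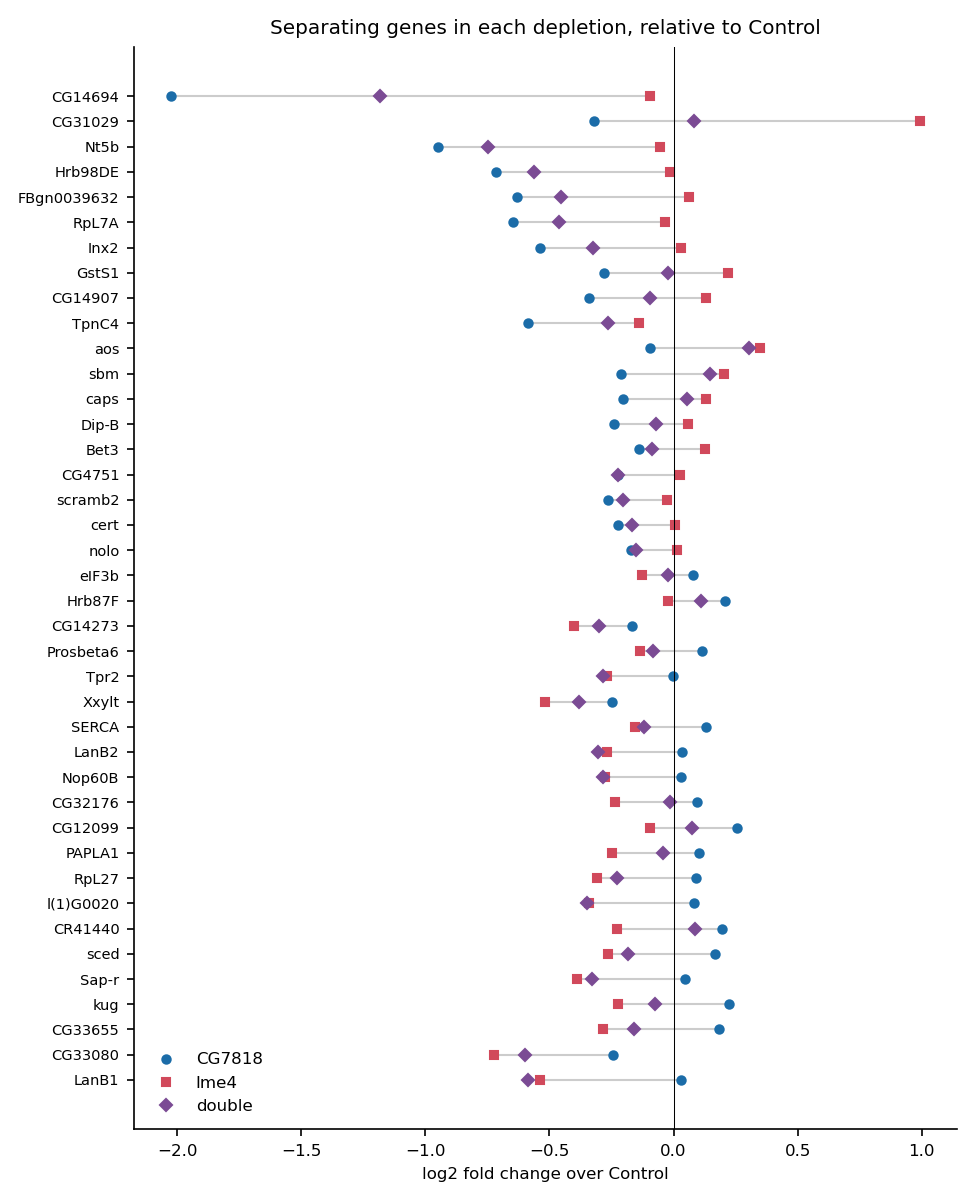
Log2 fold change over Control of the 40 called genes other than the targets in the CG7818, Ime4 and double depletions, which share the control libraries. In the upper 19 genes CG7818 lies left of 0 and mostly farther from it than Ime4. In the lower 21 Ime4 lies left of 0 and mostly farther from it than CG7818. The double depletion has a median position of 0.68 (upper) and 0.27 (lower) of the way from Ime4 to CG7818.

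Several genes picked from earlier results of these data were not called in the direct contrast. The engulfment receptor gene drpr had 145, 141 and 147 CPM in CG7818, 131, 131 and 142 CPM in Ime4 and 101, 104 and 98.7 CPM in control cells, and the interval of its difference was 0.02 to 0.19 (adjusted p = 0.267). CG15784 had 640, 731 and 752 CPM in CG7818 and 571, 662 and 634 CPM in Ime4, against 293, 271 and 370 CPM in control cells, with an interval of −0.02 to 0.39. The stress-response transcription factor crc had 830, 748 and 806 CPM in CG7818 and 957, 883 and 881 CPM in Ime4, against 696, 656 and 652 CPM in control cells. Its interval was −0.32 to −0.06, without overlap between libraries, and it missed the threshold (adjusted p = 0.16). Pcyt2, an enzyme of phosphatidylethanolamine synthesis, had 1.53, 1.36 and 2.41 CPM in CG7818, 1.27, 1.81 and 1.52 CPM in Ime4 and 3.72, 3.51 and 3.21 CPM in control cells. Its interval of −0.31 to 0.72 allows a difference of up to that size. The sex determination gene Sxl, a known target of m6A-dependent splicing in flies, had 7.38, 7.14 and 8.50 CPM in CG7818 and 11.2, 9.06 and 9.72 CPM in Ime4, without overlap, and 11.8, 11.3 and 11.1 CPM in control cells. It was not called (−0.39, SE 0.132, adjusted p = 0.187).

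With 0.502% of all genes tested called, short lists would hold few calls or none, and such counts are no result about the lists. The counts were 0 for the 25 genes for integrated stress and unfolded proteins, the 40 of cell cycle and DNA replication, the 27 of deadenylation, decapping and decay, the 15 of sex determination and dosage compensation, the 18 SR proteins and splicing regulators and the 30 Toll and Imd genes that could be tested, with list medians of −0.05 to 0.07. The fit of these 6 libraries alone, with 2.81% of genes called, called Prp8 and Doa among the splicing regulators, Pop2 and Not1 among the decay genes, PolA1 among the cell cycle genes and Rel among the Toll and Imd genes, all higher in CG7818. Other lists were mixed in that fit. Of the 19 RNA interference and microRNA genes 3 were called higher and 1 lower, and of the 14 apoptosis and p53 genes 2 higher and 1 lower. The 34 proteasome genes gave 1, Prosbeta6, and the 25 genes of axon guidance and neuronal adhesion 1, caps. Over all genes tested, 1156 (13.8%) had an unadjusted p under 0.05 in this contrast. Mitochondrially encoded genes leaned together: 16 of the 17 tested lay below 0 with a median of −0.40, against 51.8% of all genes and a median of −0.01. None was called, and no interval lay inside ±0.5. Their summed level was 82818, 127555 and 145660 CPM in CG7818 and 155747, 135609 and 157630 CPM in Ime4, so the ranges overlapped.

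The called genes shared little in the annotation. The annotation lists 18 of the 19 lower genes, all but FBgn0039632, and the 21 higher genes, and these lay on 2L, 2R, 3L, 3R and X. Of these 18 and 21 genes, 2 (Hrb98DE and RpL7A) and 1 (Nop60B) hold snoRNA genes within them, against 1.12% of all genes tested that it lists. Exons of another gene overlapped those of 2 of the 18 lower genes (11.1%) and 10 of the 21 higher genes (47.6%), against 43.7% of all genes tested that it lists. Whether reads were counted by strand is not stated in the labels, so values of such genes are uncertain. This concerns Mettl14, Bet3, scramb2, CG14273, SERCA, Nop60B, CG32176, CG12099, RpL27, l(1)G0020, Sap-r, CG33655 and CG33080 among the called genes. The same holds for nito, vir, drpr, crc, Pcyt2 and Sxl among the others with values here.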

How the data were processed

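The authors deposited 1 table of raw counts for each library, with 17558 gene IDs. The submitters' processing notes name the build BDGP6 and the tools DESeq2 1.6.3, HTSeq 0.6.1, STAR 2.4.0h and CASAVA 1.8.4. The strand setting and the annotation release were not stated there. Groups follow the sample titles; for the double depletion the genotype label names only Ime4. Summary lines that name no gene were left out of library sizes. In the 6 libraries they held 12.9% to 17.6% (reads aligned to several places), 1.77% to 1.90% (outside any gene) and 0.772% to 0.855% (ambiguous) of all counted reads. Over all 21 libraries, counts assigned to genes came to 20214568 to 28296393.

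All 21 libraries entered 1 fit: filterByExpr of edgeR, at minimum count 10, left 8360 genes, TMM scaled the libraries, and edgeR 4.0.16 (R 4.3.3) tested with its quasi-likelihood method, with 1 mean per group and 14 residual degrees of freedom. Genes were called at a Benjamini-Hochberg adjusted p under 0.05, and 95% intervals came from the same fit. The script was tested on simulated data. Pairs of CG7818 libraries differed by 12.9 to 62.0 and pairs of Ime4 libraries by 6.51 to 9.38 in chi-square per degree of freedom, so none lay within sampling noise. Pairs reached 231 in Fl2d and 194 in YT521, whose libraries also entered the estimate of the spread. Positions and exons are from Ensembl release 115 (BDGP6.54), which is later than the authors' gene models and lists 17252 of the IDs.

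Members, gene lists and tests were chosen with earlier results of these data known. The genes named are the writer and reader genes; among called genes of at least 1 CPM without overlap, the 12 highest, the 12 lowest and the 8 of smallest p each way; up to 3 called members of each list; a few genes known from earlier results; and other called genes, named after their values were seen. Alternatives were RLE scaling, no filter, DESeq2 1.42.0, the groups of each comparison alone, a replicate block, leaving out each replicate, and, chosen after seeing the data, the mitochondrial share as a covariate. No gene sequence was used here.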

Additional observations from a re-analysis of the deposited data

How the results depend on the processing

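All 42 genes called in CG7818 against Ime4 kept their direction under each of the alternatives that gave a value. Their libraries did not overlap between the groups, so leaving 1 out could hardly have reversed a direction. Of the 42, 14 also kept their call in each alternative, while 7 lost it in 1 to 3 alternatives and 21 in more. The count of 42 (22 higher, 20 lower; 52.4% higher) became 46 with RLE scaling (26 higher, 20 lower). It became 176 with no filter on low counts (106 higher, 70 lower; 39 shared), 120 with DESeq2 (85 higher, 35 lower; 70.8% higher; 41 shared), 227 with only the CG7818 and Ime4 libraries in the fit (67.8% higher; common biological coefficient of variation 5.07%, against 6.37% with all libraries) and 169 with the mitochondrial share as a covariate, chosen after seeing the data (116 higher, 53 lower; 68.6% higher). The causes were not tested. With a replicate block it was 64 (40 higher, 24 lower, 62.5% higher). The deviations of same-numbered CG7818 and Ime4 libraries correlated at 0.07, 0.13 and 0.05. CG7818 replicates 1 and 2 correlated best with their own number, and replicate 3 with Ime4 replicate 1, at 0.07. The labels state no block, so the main fit used none, though pairing by number remains possible. Against Control, the 311 genes of Ime4 became 614 with only its libraries and Control in the fit and 539 with the covariate, and the 955 of the double depletion 1634 with only its libraries and Control. Leaving out 1 library at a time gave 16 to 32 calls for CG7818 against Ime4, 93 to 122 for CG7818, 135 to 193 for Ime4 and 463 to 753 for the double depletion against Control. The share of genes with an interval inside ±0.5 was 57.9% to 83.2%, against 79.3%. Depth limits what can be said of genes under 10 CPM, and reads carried no molecular identifiers.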

Other observations

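The depletions of the other writer subunit and of the readers give levels for the same 40 genes. Their libraries were on neither side of any contrast above, but they entered the same fit and its estimate of the spread. Fl2d replicate 1 and YT521 replicate 2 stood apart, with mitochondrial genes at 3.78% and 4.99% of gene counts, against 12.3% to 15.9% in the other libraries of these 3 depletions. Nt5b had a mean of 94.6 CPM in Fl2d, 82.9 CPM in CG6422 and 88.8 CPM in YT521, each nearer to the Ime4 mean of 93.7 CPM than to the CG7818 mean of 50.4 CPM. Hrb98DE (277, 268 and 277 CPM) and RpL7A (3591, 2943 and 3124 CPM in Fl2d, CG6422 and YT521) also stood nearer to Ime4. Over the 19 genes lower in CG7818, the CG6422 depletion was nearer to Ime4 for 19, the YT521 depletion for 14 and the Fl2d depletion for 12. CG31029 was among the 5 genes nearer to CG7818 in YT521, at 1.46 CPM, and stood at 3.91 CPM in Fl2d, above the Ime4 mean of 2.79 CPM.

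Over the 21 genes higher in CG7818, the CG6422 depletion was nearer to Ime4 for 16, the Fl2d depletion for 13 and the YT521 depletion for 11. LanB1 lay between the CG7818 and Ime4 means in Fl2d, CG6422 and YT521, at 144, 127 and 120 CPM. The gene l(1)G0020 stood at 67.3 CPM in Fl2d, above its CG7818 mean of 50.4 CPM. Without Fl2d replicate 1 and YT521 replicate 2, a choice made after seeing the data, the genes nearer to Ime4 were 12 of 19 and 13 of 21 in Fl2d and 15 of 19 and 12 of 21 in YT521. Nt5b then averaged 96.6 CPM in Fl2d and 88.0 CPM in YT521. These positions are descriptions and were not tested.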
